A study of Mus musculus with 19 samples.

Results

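The genes described here are 31 transcription factors and nuclear receptors that set which genes a hepatocyte, the main metabolic cell of the liver, transcribes. They were picked out by symbol from a list of liver regulators drawn up with earlier results of these data known, and all 31 were found among the 24537 genes of the deposited count table. All 31 also passed the filter on low counts, so each was tested. The 19 libraries were made from liver cells of C57BL/6J males, wild type in genotype, 10 of them labelled 5 months old (young) and 9 labelled 24 months old (old). The liver had been perfused in 2 steps to free the cells, and poly(A) RNA was sequenced. Mice were culled on 2 days, the first with 5 young and 5 old mice and the second with 5 young and 4 old mice. By the labelled dates, young mice were 140 or 163 days old and old mice 719 or 742 days old. All mice of an age share a labelled birth date, so age and birth cohort cannot be told apart. All mice carry the same genotype and no treatment is labelled. The labels name no perfusion batch, and each library is called here by its number in them.

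Hepatocyte identity rests on a small circuit of factors, HNF4A, the FOXA, C/EBP and ONECUT proteins and PROX1, which bind one another's promoters and those of liver genes. Nuclear receptors add the response to small molecules: each binds a hormone, drug, bile acid or lipid, or has no known ligand, and many of them work only as a dimer with an RXR. In the liver they are known for setting drug metabolism, glucose and lipid output and the response to thyroid and stress hormones.

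The promoters of 5 members that the results below turn on are shown first, so that the letters upstream of each start can be read beside its values. RefSeq's promoter table (build GRCm38.p6) held 24 of the 31 members. It held no entry for Gata4, Gata6, Nr3c1, Onecut2, Thra, Usf2 and Zhx2. In 21 of the 24, the table's start lay within 200 bases of the start used for counting. Each sequence is the 250 bases before the start, 5′ to 3′ on the gene's strand, all 5 on the plus strand. They are Klf15 at chr6:90462326-90462575, Klf9 at chr19:23140976-23141225, Thrb at chr14:17660710-17660959, Hnf4a at chr2:163546905-163547154 and Usf1 at chr1:171411063-171411312. Capitals mark matches to any of 10 short motifs searched on both strands.
Klf15: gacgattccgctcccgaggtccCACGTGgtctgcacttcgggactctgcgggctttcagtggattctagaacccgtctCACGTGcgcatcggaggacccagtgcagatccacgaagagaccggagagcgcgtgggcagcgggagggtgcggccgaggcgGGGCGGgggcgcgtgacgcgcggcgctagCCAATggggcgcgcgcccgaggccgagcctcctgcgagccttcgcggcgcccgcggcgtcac
Klf9: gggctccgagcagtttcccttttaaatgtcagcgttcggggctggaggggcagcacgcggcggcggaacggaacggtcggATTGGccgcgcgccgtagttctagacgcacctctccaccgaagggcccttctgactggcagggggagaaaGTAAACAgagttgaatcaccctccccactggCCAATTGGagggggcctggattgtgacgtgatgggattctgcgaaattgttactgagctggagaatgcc
Thrb: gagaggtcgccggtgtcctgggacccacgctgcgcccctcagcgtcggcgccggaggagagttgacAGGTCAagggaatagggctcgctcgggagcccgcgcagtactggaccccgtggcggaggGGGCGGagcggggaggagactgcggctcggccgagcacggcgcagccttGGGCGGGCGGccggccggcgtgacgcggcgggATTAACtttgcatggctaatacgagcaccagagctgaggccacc
Hnf4a: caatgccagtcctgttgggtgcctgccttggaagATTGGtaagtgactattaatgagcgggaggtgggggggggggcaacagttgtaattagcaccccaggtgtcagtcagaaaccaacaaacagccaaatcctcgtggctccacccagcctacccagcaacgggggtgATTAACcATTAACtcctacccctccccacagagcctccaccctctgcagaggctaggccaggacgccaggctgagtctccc
Usf1: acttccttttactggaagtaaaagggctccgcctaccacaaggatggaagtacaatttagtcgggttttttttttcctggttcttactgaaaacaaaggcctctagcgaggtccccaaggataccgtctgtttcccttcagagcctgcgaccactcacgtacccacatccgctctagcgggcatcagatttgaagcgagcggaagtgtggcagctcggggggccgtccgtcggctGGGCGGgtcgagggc

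The 10 motifs are words that known factors read, and a match is a description of the letters only. The E-box CACGTG, the word read by USF and clock proteins, stood in 3 of the 21 member promoters and in 6.02% of all 32851 promoters of this length in the table. Klf15 carried it at positions -228 and -172 from the start. The GC box GGGCGG stood in 14 of the 21 promoters and in 32.7% of all, and CCAAT in 8 of the 21 and in 33.8%. Klf9 held CCAAT at -170, -69 and -66, and the forkhead word TGTTTAC at -100. That forkhead word stood in 2 of the 21 promoters, with Foxa1 the other, and in 3.17% of all. AGGTCA, the core word of nuclear receptor sites, stood in 1 of the 21, Thrb at -184, and in 14.0% of all. GTTAAT, part of the HNF1 site, stood in Hnf4a at -81 and -74 and in Thrb at -44, and in 6.43% of all. TATAAA stood in 3 of the 21 and in 12.4% of all. No match to the C/EBP palindrome TTGCGCAA, to the GATA word AGATAA or to the palindromic glucocorticoid response element was found in the 21, against 0.164%, 9.99% and 0.00913% of all promoters.

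Depth was close in both ages, with young libraries at 18575094 ± 679515 counts over genes (SD, n = 10) and old ones at 19548840 ± 620312 (SD, n = 9). Hepatocyte markers were abundant, as the labels state the cell type: 12 of them summed to 114400 to 169400 CPM (counts rescaled so that libraries share one total) in young and 131400 to 216900 in old libraries. RNA of other liver cells was also present. Macrophage markers summed to 100.2 to 486.4 CPM in young and 67.96 to 3313 in old libraries, endothelial markers to 186.9 to 362.1 and 197.1 to 660.3, and stellate cell markers to 43.19 to 124.1 and 136.8 to 485.8. All 12 macrophage, 9 of 12 endothelial and all 12 stellate markers were higher in old mice at an adjusted p under 0.05, and none of the 36 was at 0 throughout. Old mouse 1187 had the highest sum for each of the 3 lists. Acute-phase genes, the secreted proteins of the liver's response to inflammation, summed to 69620 to 112000 CPM in young mice 1184, 1186 and 1188, all of the first cull day, against 21040 to 26760 in the other 7 young mice and 27090 to 82190 in old mice. None of the 18 acute-phase genes passed the age test. Every old mouse lay above all of the other 7 young mice in the acute-phase sum. With 1184, 1186 and 1188 left out, age and acute-phase level therefore cannot be told apart. Values below are given with and without these libraries where they change a call.

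Across all libraries the 31 genes spanned a wide range of levels, compared here as CPM per kilobase of the counted transcript. The C/EBP alpha gene Cebpa (151.8), the stress factor gene Atf5 (148) and Hnf4a (142.5) headed the order, with no gap among them beyond 1 SD over libraries. Hnf4a then stood 1.09 ± 0.198 above Rxra on the log2 scale (SD, n = 19), higher in 19 of 19 libraries. Rxra (67.04), Cebpb (64.82), Klf15 (48.89) and Nr2f6 (41.94) followed, each within 1 SD of its neighbour. Below them came Nr1i3 (32.05) and Foxa3 (30.7), then Usf2 (21.68), Nr1i2 (20.95) and Klf9 (20.27). Klf9 stood 0.91 ± 0.426 above Nr3c1 (log2, SD, n = 19), again in 19 of 19 libraries. The next 18 genes ran from Nr3c1 at 10.44 to Gata6 at 1.97 with no step beyond 1 SD between neighbours. The lowest was Zbtb20 at 0.964. The spread between mice differed among members. Rxrb, a retinoid X receptor, was the steadiest, with a coefficient of variation of 8.25% in young and 8.51% in old mice. By the same measure Onecut1 was the most variable, at 76.3% and 49.2%, and its highest library was 8.59 times its lowest.

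**Figure D1:**
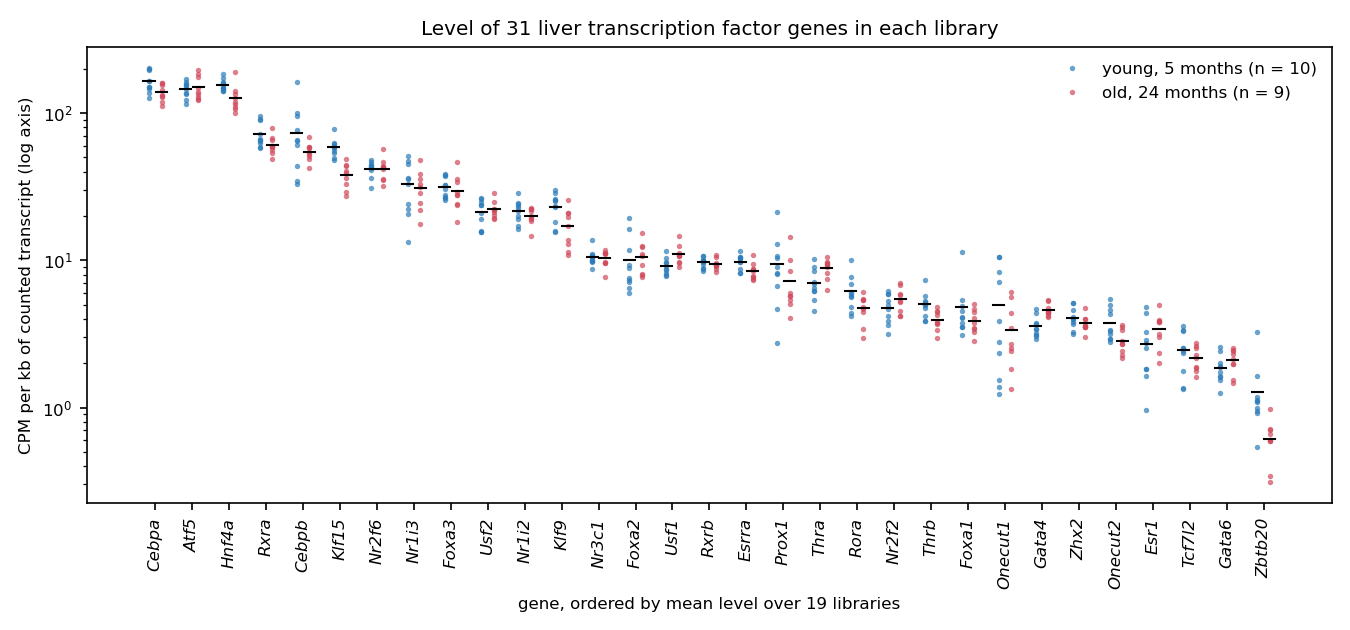
Level of each of the 31 genes in every library, as CPM per kilobase of the counted transcript on a log axis, with young and old mice in separate colours. Cebpa, Atf5 and Hnf4a lie at the top near 150, and Zbtb20 lies at the bottom near 1.

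With age, 7 of the 31 genes were lower and 3 were higher in edgeR's quasi-likelihood test with cull day as a covariate, at an adjusted p under 0.05 (Benjamini-Hochberg over 12269 genes). Those that fell were Klf15, Zbtb20, Onecut2, Klf9, Thrb, Hnf4a and Rxra. Those that rose were Gata4, Thra and Usf1. The 10 calls are 32.3% of the members, beside 30.9% of all genes tested (3785 of 12269), so the share called is near the background and is no result about these genes as a group. By direction, 22.6% of members fell, beside 14.5% of all genes, and 9.68% rose, beside 16.3%. The median log2 fold change, old over young, was -0.133 over the members and -0.00338 over all genes tested. On a single cull day, with fewer mice, Gata4 passed on the first day and Hnf4a and Klf15 on the second, and the other 7 of the 10 passed on neither. With a score of other-cell markers as a covariate, 2 of the 10 passed, Klf15 and Thra, and the values of the others under it stand beside each. In none of the 31 were the ages free of overlap, a separation that 1.72% of all genes tested showed.

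**Figure D2:**
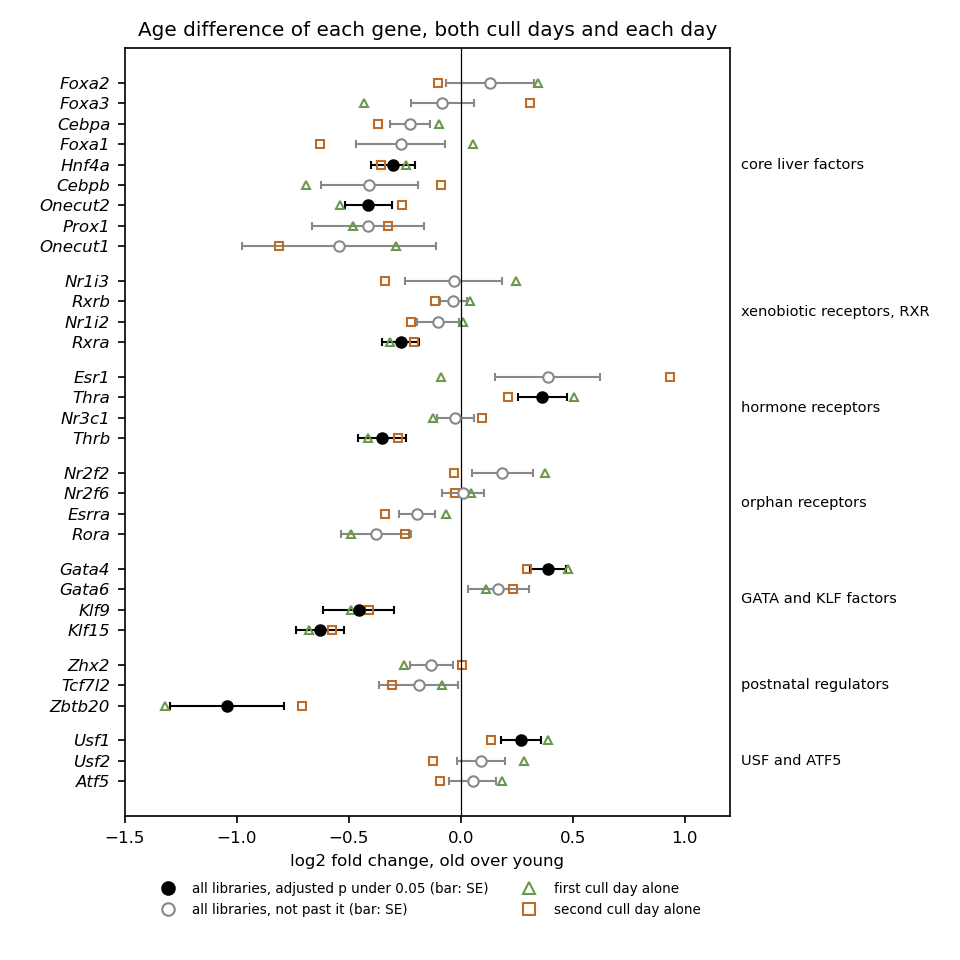
Log2 fold change (old over young) of each gene by role, with bars of 1 SE, filled where the adjusted p was under 0.05. Triangles and squares give the first and second cull day alone. The 10 filled points keep their side of 0 on both days, while 13 of the 21 open points have the days on opposite sides, farthest apart for Esr1 and Foxa3.

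Among the core liver factors, 2 of 9 fell and none rose, beside 14.5% of all genes lower and 16.3% higher. Of the 9 log2 fold changes 8 were below 0, as were 50.4% of those of all genes tested, and 7 of the 9 genes did not pass. Hnf4a encodes the nuclear receptor without which hepatocytes lose most liver-specific transcription (mm10, chr2:163547155-163572907, plus strand). In young mice its lowest, median and highest values were 622.4, 662.6 and 806.9 CPM, and in old mice 437.8, 520.7 and 834.4. Of the old mice, 8 of 9 lay below every young mouse, and the other, 1189, lay above every one. The means were 683.4 ± 60.43 (SD, n = 10) and 558.4 ± 119.1 (SD, n = 9), for an old over young log2 change of -0.30 (SE 0.0984, adjusted p = 0.0268). It was -0.25 on the first cull day alone and -0.36 on the second. The adjusted p rose to 0.052 without young mouse 1188 (-0.28), to 0.0507 without old mouse 1240 (-0.28) and to 0.0726 without young mice 1184, 1186 and 1188 (-0.29). With the other-cell covariate it was -0.16 (adjusted p = 0.418), and on the first day alone the adjusted p was 0.396. Fewer cells of a type and less RNA per cell cannot be told apart in these bulk libraries, here or for any gene below.

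Onecut2 encodes a cut-homeodomain factor that acts beside ONECUT1 in liver development (chr18:64340364-64398488). It measured 37.17, 44.73 and 72.69 CPM in young mice (lowest, median, highest) and 29.15, 36.13 and 48.4 in old mice. The groups overlapped, with 5 of 9 old mice below every young mouse. The means were 50.51 ± 12.85 (SD, n = 10) and 38.04 ± 7.231 (SD, n = 9), for an old over young log2 change of -0.41 (SE 0.106, adjusted p = 0.008). It was -0.54 on the first and -0.26 on the second cull day, and neither day passed alone (adjusted p = 0.0936 and 0.081). The call held whichever single mouse was left out but not with the other-cell covariate (-0.27, adjusted p = 0.182).

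The other 7 core factors did not pass the test. Cebpa, a factor that drives metabolic genes and holds back division, came nearest (-0.23, adjusted p = 0.06). It ran from 334.9 to 535.6 CPM in young and from 295.4 to 420.9 in old mice. Its adjusted p was under 0.05 with old mouse 1183 (0.0258), young mouse 1184 (0.0383), old mouse 1185 (0.0338) or young mouse 1235 (0.0474) left out, at log2 fold changes of -0.27, -0.26, -0.26 and -0.25. It was also called without young mice 1184, 1186 and 1188 (-0.31, adjusted p = 0.0322), on the second day alone (-0.37, adjusted p = 0.03) and in DESeq2 (adjusted p = 0.0319). With the other-cell covariate it was -0.02 (adjusted p = 0.894), and on the first day alone -0.10 (adjusted p = 0.663). For Prox1, the homeobox gene of early liver fate, the log2 fold change was -0.41 (adjusted p = 0.214). It was -0.25 without young mouse 1180, the highest (adjusted p = 0.441), and -0.08 with the other-cell covariate (adjusted p = 0.901). Onecut1 had a larger value with a wider spread (-0.54, adjusted p = 0.357). Of the counted Onecut1 transcript, 18.8% (342 of 1823 bases) overlaps exons of Gm20649 on the same strand, so its level is uncertain. The FOXA genes, whose products open chromatin for other factors, gave -0.27 for Foxa1, 0.13 for Foxa2 and -0.08 for Foxa3 (adjusted p = 0.316, 0.642 and 0.679). Without young mouse 1235, the highest, Foxa1 was -0.07 (adjusted p = 0.68). Foxa3 was -0.43 on the earlier cull day and 0.31 on the later, and the difference between days had an unadjusted p of 0.00468 and an adjusted p of 0.65.

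Of the receptors of foreign compounds and their partners, 1 of 4 fell and none rose, beside 14.5% of all genes lower and 16.3% higher. Rxra encodes the main hepatic retinoid X receptor, the shared partner of many nuclear receptors (chr2:27677201-27763319). Young mice were at 306.2, 347.9 and 506.3 CPM (lowest, median, highest) and old mice 254.7, 310.2 and 415.4. The highest 3 young values, 468.9 to 506.3, were those of the mice with high acute-phase genes, 1184, 1186 and 1188. The other 7 young mice lay between 306.2 and 380.6. Rxra fell by 0.27 on the log2 scale (SE 0.0826, adjusted p = 0.0206), by 0.32 on the first day and 0.21 on the second. Without those 3 young mice the log2 fold change was -0.14 (adjusted p = 0.191), and how far the acute-phase state contributes was not tested. With the other-cell covariate it was -0.28 (adjusted p = 0.103). Rxrb was -0.03 (adjusted p = 0.701). The Rxra to Rxrb ratio within libraries was 0.22 lower in old mice in log2 units (exact permutation p = 0.0471, adjusted over 12 paralog pairs 0.24).

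Nr1i2 encodes PXR, the pregnane X receptor that responds to drugs and bile acids, and Nr1i3 encodes CAR, the constitutive androstane receptor that induces Cyp2b enzymes. Neither passed the test, with log2 fold changes of -0.10 (adjusted p = 0.429) and -0.03 (adjusted p = 0.925). Nr1i3 ranged from 18.81 to 71.19 CPM in young and from 24.93 to 67.03 in old mice, and its sign differed between cull days (0.25 and -0.34). Of the transcript counted for Nr1i3, 66.2% overlaps exons of Tomm40l on the opposite strand. How strand was set in the counting is not given in the sources used here, so its level is uncertain.

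The hormone receptors held a pair of members that moved in opposite directions, the thyroid hormone receptors. Thrb encodes the beta receptor, the main form in liver (chr14:17660960-18038088). In young mice its lowest, median and highest values were 23.25, 29.87 and 44.14 CPM, and in old mice 17.63, 22.64 and 28.91. Every old mouse lay below the young median and 5 of 9 below every young mouse. The means were 30.09 ± 6.155 (SD, n = 10) and 23.67 ± 3.639 (SD, n = 9), for an old over young log2 change of -0.35 (SE 0.108, adjusted p = 0.0201), and -0.41 and -0.28 on the first and second cull day. Neither day passed alone (adjusted p = 0.145 and 0.185), nor did the fit with the other-cell covariate (-0.21, adjusted p = 0.334).

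Thra encodes the alpha receptor, the main form in heart and muscle (chr11:98741785-98769006). It measured 11.15, 16.46 and 25.25 CPM in young mice (lowest, median, highest) and 15.59, 22.97 and 26.05 in old mice. The ages overlapped, with 8 of 9 old mice above the young median. The means were 17.34 ± 4.284 (SD, n = 10) and 21.79 ± 3.201 (SD, n = 9), for an old over young log2 change of 0.36 (SE 0.109, adjusted p = 0.0176), and 0.51 and 0.21 by day. Without young mice 1184, 1186 and 1188 it was 0.26 (adjusted p = 0.0981). Of the counted Thra transcript, 10.7% (263 of 2452 bases) overlaps exons of Nr1d1 on the opposite strand. Nr1d1, a clock repressor, was at 76.11 CPM in young and 80.5 in old mice (log2 fold change 0.09, adjusted p = 0.741). Since the strand setting is not given, the Thra count could hold Nr1d1 reads, and its level and change are uncertain.

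Within libraries, the log2 ratio of Thra to Thrb, both per kilobase, averaged 0.43 ± 0.499 among the young (SD, n = 10) and 1.07 ± 0.346 among the old (SD, n = 9). All 9 old mice lay above the young median. The difference was 0.65 (exact two-sided permutation p = 0.00167 with mice relabelled within cull days, adjusted over 12 pairs 0.02), and 0.85 and 0.45 by day. It was the one pair of the 12 past the threshold. Thra stood above Thrb on average in both ages, so these counts do not show Thrb as the main form. The ratio carries the uncertainty of the Thra count stated above. The adjusted p of this exact test was 0.0663 without old mouse 1242 (0.60), 0.0841 with relabelling across days (0.63) and 0.113 without young mice 1184, 1186 and 1188 (0.67).

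**Figure D3:**
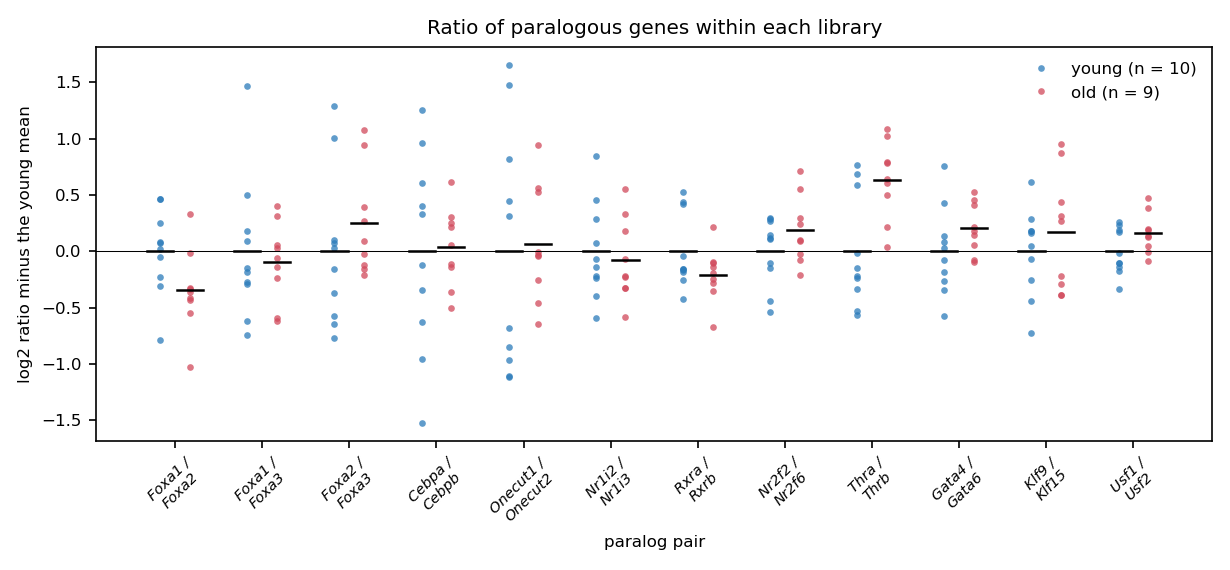
Within-library log2 ratio of the 12 pairs of family members in each mouse, minus the young mean of that pair, with bars at the age means. For Thra to Thrb the 9 old mice lie above the young median.

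The remaining hormone receptors did not pass. Nr3c1, the glucocorticoid receptor gene, gave -0.02 (adjusted p = 0.846), at 55.55 to 86.81 CPM in young and 48.61 to 74.09 in old mice. Esr1, the estrogen receptor alpha gene, gave 0.39 (adjusted p = 0.213), with -0.09 on the first and 0.93 on the second cull day (adjusted p = 0.849 and 0.0355). The test of that difference between days had an unadjusted p of 0.0238 and an adjusted p of 0.708. Without young mice 1184, 1186 and 1188, Esr1 was called higher (0.75, adjusted p = 0.0227), and with the other-cell covariate it was 0.19 (adjusted p = 0.713).

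None of the 4 orphan receptors passed, beside 30.9% of all genes called, and with 4 genes nothing is read from that count. Esrra, whose product drives mitochondrial genes, gave -0.19 (adjusted p = 0.0693) and Rora, a clock and lipid regulator, gave -0.38 (adjusted p = 0.0723). Esrra was called with young mouse 1182 left out (-0.22, adjusted p = 0.0486) or old mouse 1183 left out (-0.25, adjusted p = 0.00975), on the second day alone (-0.34, adjusted p = 0.0251), in limma-voom (-0.23, adjusted p = 0.014) and, at the threshold itself, with no filter on low counts (-0.23, adjusted p = 0.049952). On the first day alone it was -0.06 (adjusted p = 0.748) and with the other-cell covariate -0.08 (adjusted p = 0.613). Rora was called without young mouse 1243 (-0.43, adjusted p = 0.0476) and in DESeq2 (adjusted p = 0.0463), and with the covariate it was -0.18 (adjusted p = 0.601). The COUP-TF family genes Nr2f2 and Nr2f6 gave 0.18 and 0.01 (adjusted p = 0.315 and 0.953). The Nr2f6 transcript overlaps exons of Ocel1 on the opposite strand over 41.4% of its bases, so its level is uncertain too.

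The GATA and KLF zinc finger genes held the 2 members with the smallest p. Klf15 encodes a glucocorticoid-induced factor that promotes amino acid breakdown and gluconeogenesis (chr6:90462626-90475209). Young mice were at 110.1, 133.6 and 178.8 CPM (lowest, median, highest) and old mice 62.84, 89.09 and 111.9. Of the old mice, 8 of 9 lay below every young mouse, and all 9 below the young median. The means were 134.3 ± 19.31 (SD, n = 10) and 87.01 ± 16.41 (SD, n = 9), for an old over young log2 change of -0.63 (SE 0.107, adjusted p = 0.000457). It was -0.68 on the first day and -0.58 on the second, and the call held whichever single mouse was left out.

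Klf9, also induced by glucocorticoids and by thyroid hormone (chr19:23141226-23166911), fell with a much narrower margin. In young mice its lowest, median and highest values were 50.7, 79.61 and 97.18 CPM, and in old mice 35.7, 55.47 and 84.22. The ages overlapped, with 4 of 9 old mice below every young mouse. The log2 fold change was -0.46 (SE 0.158, adjusted p = 0.0353), and -0.49 and -0.41 by day. With any one of young mice 1180, 1184, 1186, 1188, 1235, 1237 and 1239 or old mice 1183, 1187, 1236 and 1242 left out it was not called, at adjusted p of 0.0511 to 0.0674 and log2 fold changes of -0.45 to -0.39. Without 1184, 1186 and 1188 together it was -0.36 (adjusted p = 0.159), and with the other-cell covariate -0.41 (adjusted p = 0.204).

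Gata4 encodes a zinc finger factor that opens liver chromatin in development and is also known in liver endothelial and stellate cells (chr14:63198914-63245271). It measured 9.846, 11.59 and 15.76 CPM in young mice (lowest, median, highest) and 13.95, 15.17 and 18.24 in old mice. All 9 old mice lay above the young median and 3 above every young mouse. The means were 12.08 ± 1.965 (SD, n = 10) and 15.67 ± 1.551 (SD, n = 9), for an old over young log2 change of 0.39 (SE 0.0808, adjusted p = 0.0021), and 0.48 and 0.30 by day. Markers of endothelial and stellate cells rose as well, from medians of 226.1 and 65.24 CPM to 368.3 and 205.9. With the other-cell covariate, Gata4 gave 0.32 (adjusted p = 0.0576). Gata6 gave 0.17 (adjusted p = 0.368).

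**Figure D4:**
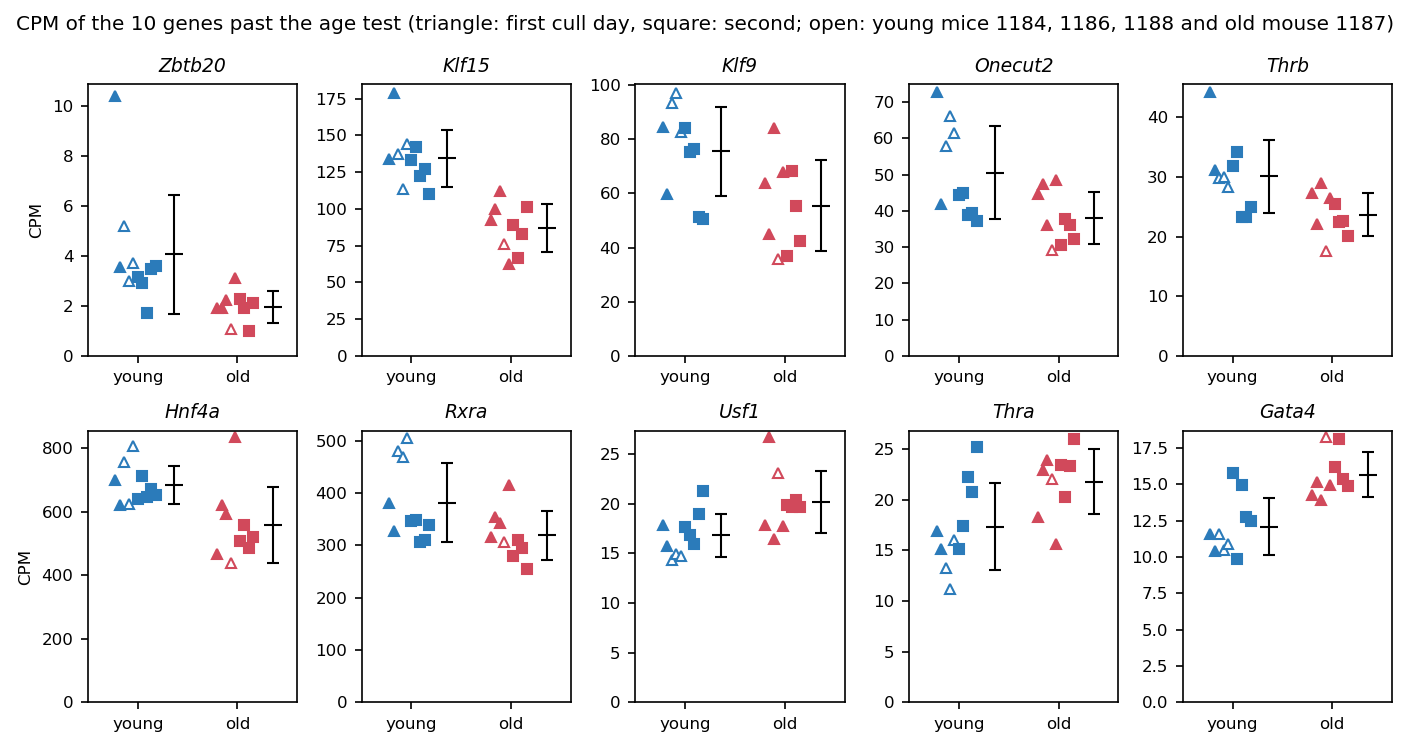
CPM of the 10 genes past the threshold in every library by age, with triangles for the first cull day and squares for the second. Open symbols are young mice 1184, 1186 and 1188 and old mouse 1187, and bars give the mean ± SD. For Klf15 and Hnf4a, 8 of 9 old mice lie below every young mouse.

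Among the regulators of postnatal liver genes, 1 of 3 was called, a fall, beside 30.9% of all genes called. Zbtb20 encodes a repressor that silences the fetal gene Afp after birth (chr16:42907645-43619123). Young mice were at 1.71, 3.51 and 10.38 CPM (lowest, median, highest) and old mice 0.984, 1.92 and 3.13. All 9 old mice lay below the young median, and young mouse 1180 lay far above the rest. The log2 fold change was -1.04 (SE 0.255, adjusted p = 0.00589), and -1.32 and -0.71 by day. Without mouse 1180 it was -0.81 (adjusted p = 0.009), and with the other-cell covariate -0.71 (adjusted p = 0.159). These values rest on 20 to 197 counts a library over a counted transcript of 3180 bases. Zhx2, which also represses Afp, gave -0.13 (adjusted p = 0.307) and Tcf7l2, the main transcription factor of Wnt signalling in liver, gave -0.19 (adjusted p = 0.442).

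Of the last 3 members 1 was called, Usf1, which rose, beside the same 30.9%. It encodes an E-box factor of lipid and glucose genes (chr1:171411313-171418759). In young mice its lowest, median and highest values were 14.33, 16.41 and 21.28 CPM, and in old mice 16.47, 19.67 and 26.71. All 9 old mice lay above the young median, and 2 above every young mouse. The log2 fold change was 0.27 (SE 0.0891, adjusted p = 0.0278), and 0.39 and 0.14 by day. The adjusted p was 0.0655 without old mouse 1187 (0.23), 0.052 without young mouse 1188 (0.25) and 0.18 without young mice 1184, 1186 and 1188 (0.19). With the other-cell covariate it was 0.34 (adjusted p = 0.0634). Its partner Usf2 gave 0.09 (adjusted p = 0.555). The Usf1 to Usf2 ratio was 0.16 higher in old mice in log2 units (exact permutation p = 0.0851, adjusted over 12 pairs 0.255). Atf5, a stress factor with a high level in liver, gave 0.05 (adjusted p = 0.723).

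Cebpb, the C/EBP gene known for its induction in inflammation, was highest in the young mice with high acute-phase genes. It was at 152.6, 245.3 and 144.3 CPM in young mice 1184, 1186 and 1188, at 49.91 to 117.3 in the other 7 young mice and at 64.01 to 104.2 in old mice. Old mouse 1189, whose acute-phase sum of 82190 CPM exceeded that of young mouse 1188 (69620), had Cebpb at 88.97 CPM, inside the range of the other old mice. The age log2 fold change was -0.41 (adjusted p = 0.159) and, without those 3 mice, 0.01. Nr1i3 was at 18.81, 34.07 and 29.18 CPM in the same mice and at 31.4 to 71.19 in the other young mice. Of the counted Cebpb transcript, 20.7% overlaps exons of Tmem189 on the opposite strand, so its level is uncertain in the same way. With the 3 mice left out, 7 members were called, beside 27.2% of all genes tested. Of these, Gata4, Klf15, Onecut2, Thrb and Zbtb20 were among the 10, and Cebpa and Esr1 were added.

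**Figure D5:**
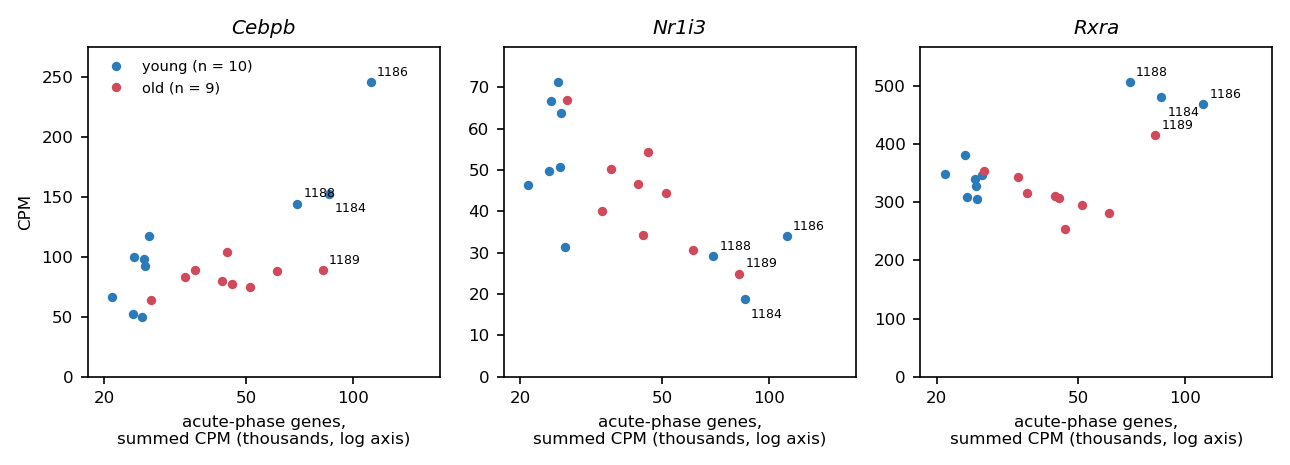
CPM of Cebpb, Nr1i3 and Rxra in each library against the summed CPM of 18 acute-phase genes (log axis), by age. Young mice 1184, 1186 and 1188 lie at the right, with old mouse 1189 beside them, and have the highest Cebpb and Rxra among young mice.

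No member showed an age difference that changed between the cull days at an adjusted p under 0.05. In edgeR 0 of 12269 genes did, 0.0% of those tested, and 2 members (Foxa3 and Esr1) had an unadjusted p under 0.05. DESeq2 called 20 genes and no member. Alone, the first day called 1 member, Gata4, beside 3.67% of all genes. The second called 5, beside 19.3%: Hnf4a and Klf15, which are among the 10, and Cebpa, Esr1 and Esrra, which are not. With the mean log2 CPM of the 36 macrophage, endothelial and stellate markers as a covariate, 3 members were called, beside 11.4% of all genes. These were Klf15 (-0.54, adjusted p = 0.0195), Thra (0.46, adjusted p = 0.0433) and Cebpb (-0.83, adjusted p = 0.033). The other 8 of the 10 kept their direction without passing, at adjusted p of 0.0576 to 0.418. The score ran from 2.34 to 3.92 in young and from 2.70 to 5.87 in old libraries, and the part of other cells in the other members' differences was not tested further.

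Other regulators that work with these genes were read from lists chosen by function. Of 50 further liver regulators tested, 8 rose and 9 fell, beside 16.3% of all genes higher and 14.5% lower, with a median log2 fold change of 0.00312. The retinoic acid receptor gene Rarb rose (1.05, adjusted p = 0.000273), at low means of 2.295 CPM in young and 4.757 in old mice. The nuclear factor I gene Nfix fell (-0.49, adjusted p = 0.00355). Of 14 coregulators, through which receptors act on chromatin, 3 fell (21.4%, beside 14.5% of all genes), none rose, and the median was -0.212. These shares are near the background and are no result about the lists. Those that fell were the receptor coactivators Ncoa1 (-0.42) and Ncoa2 (-0.36) and the Mediator subunit gene Med1 (-0.39).

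Known targets of the members were read in the same way, beside 16.3% of all genes higher and 14.5% lower. Of 15 glucocorticoid targets, 6 fell and none rose (median -0.502), led by the amino acid enzymes Tdo2 (-0.79, adjusted p = 0.000114) and Tat (-1.11, adjusted p = 0.000324) and the gluconeogenic Pck1 (-0.50). Thyroid hormone targets had 4 of 11 lower and none higher (median -0.469). Among them Dio1, the deiodinase that activates thyroid hormone, went from 87.14 to 33.33 CPM (-1.40, adjusted p = 0.00075), and Idh3a (-0.47) and the thyroid hormone transporter gene Slc16a10 (-0.61) also fell. For ESRRA targets, mostly mitochondrial, 7 of 11 were lower and 1 was higher (median -0.295), with Idh3a, Ndufs1 (-0.36) and Cycs (-0.37) among the lower.

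HNF4A targets were mixed, with 4 of 25 higher and 3 lower (median -0.178). Ugt2b1 (-0.90) and the urea cycle gene Otc (-0.42) fell, and the clotting factor gene F7 rose (0.29). CAR and PXR targets had 2 of 22 higher and 3 lower (median 0.134). Cyp2b9, a cytochrome P450 gene, had the smallest p of the list (adjusted p = 3.19e-05), at no more than 0.158 CPM in any young mouse and 1.945 to 83.32 in old mice. Cyp2b10, the commonly used CAR target and named after its value was seen, did not pass (0.17, adjusted p = 0.834). The list's other calls include the sulfotransferase gene Sult1d1 (-0.57) and the drug exporter gene Abcb1a (1.23). Abcb1a was at low means of 1.13 CPM in young and 2.775 in old mice. Of 15 TCF7L2 targets, 4 fell and 1 rose (median -0.247). The pericentral Cyp1a2 (-0.91) and Oat (-0.59) fell, and the Wnt feedback gene Nkd1 rose (0.96). Of 8 genes repressed or controlled by ZHX2 and ZBTB20, 4 could be tested. Lpl rose (1.79), at 3.984 to 13.51 CPM in young and 4.988 to 134.8 in old mice, so the ages overlapped. Cdh1 (-1.11) and Elovl3 (-0.94) fell. Afp, at low means of 0.9375 CPM in young and 1.223 in old mice, gave 0.35 without passing. Clock genes, which are known to drive a daily rhythm in Klf9, had 7 of 16 lower and 1 higher, beside 14.5% and 16.3% of all genes (median -0.398), with Per2 (-0.68), Nr1d2 (-0.42) and Tef (-0.57) among the lower. The labels used here give no hour of culling, and the part of time of day was not tested.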

How the data were processed

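Poly(A) RNA of hepatocytes from 10 young and 9 old mice was sequenced as stranded paired-end libraries, per the labels' protocols. The authors deposited 1 table of estimated counts per gene (HOMER, exons of RefSeq transcripts, mm10, raw, per the file headers), and STAR is named in the submitters' processing notes. Strand setting and versions are not given in the sources used here. Counts were multiples of 0.5, 29.2% of values were not whole, and they were rounded. Counts from named genes made up 78.34% to 86.52% of the total in each column name.

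Age was tested with edgeR 4.0.16 (R 4.3.3): TMM scaling, filterByExpr by age (minimum count 10), quasi-likelihood test with cull day, Benjamini-Hochberg adjustment over all 12269 genes kept, threshold 0.05. The SE was taken as |log2 fold change| over the root of F. CPM are TMM-scaled. The 12 paralog ratios, log2(CPM per kilobase + 0.5), were compared by exact two-sided permutation within cull days (31752 relabellings, smallest p 3.15e-05). The steps were tested on simulated data. Python 3.11.15, numpy 2.4.6, pandas 2.3.3 and scipy 1.17.1 did the rest.

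Labels do not say outright that each library is a separate animal. If libraries shared one, p-values would measure only the spread between libraries. No library appeared to be a copy of another, since every pair differed beyond counting noise (smallest chi-square per degree of freedom 14.5), which does not show whether animals are distinct. All 31 members are named, called members with their lowest, median and highest values, and up to 3 genes of smallest p from each other list, plus genes overlapping a member, and Afp and Cyp2b10, which were named after their values were seen. The members and lists were chosen with earlier results of these data known. Alternatives were other scalings, filters, DESeq2 1.42.0, limma-voom (limma 3.58.1), no cull day term, each day alone, an other-cell covariate, other pseudocounts and leaving out each mouse. Leaving out 1184, 1186 and 1188 together, leaving out 1187, and unrounded counts were added after seeing the data. Overlaps used GENCODE M21.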

Additional observations from a re-analysis of the deposited data

Results flagged for a closer look

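Of 62 sets of values (31 genes in each age), 7 had a mouse whose gap to the nearest other mouse was a large part of the whole range (Dixon's 95% limit), and chance flags about 1 in 20 sets. Young mouse 1180 was the far sample for 3 genes: Zbtb20 at 10.38 CPM (others 1.71 to 5.20), Thrb at 44.14 CPM (others 23.25 to 34.24) and Nr3c1 at 86.81 CPM (others 55.55 to 69.77). Hnf4a was at 834.4 CPM in old mouse 1189, against 437.8 to 620.4 in the other old mice. Klf15 stood at 178.8 CPM in young mouse 1182, against 110.1 to 143.9 in the other young mice. In young mouse 1186 Cebpb reached 245.3 CPM, with the other young mice at 49.91 to 152.6. Foxa1 was at 36.19 CPM in young mouse 1235 and at 9.95 to 17.07 in the other young mice.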

How the results depend on the processing

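No paired analysis was possible because the labels number libraries, and no number is shared between the ages. The first cull day alone gave 1 member higher, 0 lower and 450 genes called in all, the second 1, 4 and 2389, and the other-cell covariate 1, 2 and 1395, where the cause of the smaller counts was not tested beyond the fewer mice of a single day. Leaving out 1 mouse at a time gave 2 to 3 members higher, 5 to 8 lower, 3014 to 3949 genes in all and 0 to 1 paralog pairs. The pair count was 0 with relabelling across days and 0 without young mice 1184, 1186 and 1188. Calls were also lost with library totals alone (Rxra), no filter (Usf1), limma-voom (Klf9, Usf1) and no cull day term (Klf9, Rxra, Thra), and gained with no filter and limma-voom (Esrra) and DESeq2 (Cebpa, Rora). No called member changed sign in any of 13 other settings or 19 fits with a mouse left out. Reversals, all of genes not called, were Atf5 (-0.094), Foxa2 (-0.10), Foxa3 (0.31), Nr2f2 (-0.032), Nr2f6 (-0.028), Nr3c1 (0.093), Usf2 (-0.12) and Zhx2 (0.0034) on the second day; Esr1 (-0.090), Foxa1 (0.055), Nr1i2 (0.010), Nr1i3 (0.25) and Rxrb (0.039) on the first; Nr1i2 (0.18), Nr1i3 (0.42), Nr3c1 (0.048) and Rxrb (0.020) with the covariate; Nr1i3 (0.017), Nr3c1 (0.021) and Rxrb (0.011) with library totals alone. Without 1184, 1186 and 1188 they were Atf5 (-0.032), Cebpb (0.015), Foxa3 (0.066), Nr2f2 (-0.013), Nr2f6 (-0.059), Usf2 (-0.083), the Cebpa to Cebpb ratio (-0.39) and the Nr1i2 to Nr1i3 ratio (0.10). Nr2f6 also reversed with DESeq2 size factors (-0.00074), DESeq2 (-0.00081), no filter (-0.023) and no cull day term (-0.0011), and Nr3c1 with limma-voom (0.021). With 1 mouse left out at a time, the values that crossed 0 ran from -0.0034 to 0.092 for Atf5, -0.16 to 0.053 for Nr1i3, -0.071 to 0.044 for Nr2f6 and -0.050 to 0.026 for Nr3c1, and for the ratios from -0.20 to 0.018 (Foxa1 to Foxa3), -0.089 to 0.22 (Cebpa to Cebpb), -0.095 to 0.23 (Onecut1 to Onecut2) and -0.16 to 0.0087 (Nr1i2 to Nr1i3).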
